A study of Rattus norvegicus with 12 samples.

Results

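Cytoplasmic ribosomal protein genes were followed across the ventral dentate gyrus of male rats. Members were taken by name: symbols that begin with Rpl or Rps and a digit, plus Rplp0, Rplp1, Rplp2 and Rpsa, without the Rps6k kinases, the like-1 paralog Rpl22l1 and the pseudogene Rpl37a-ps1. This gave 83 of the 17172 gene symbols in the count tables. Of these, 77 encode core proteins of the ribosome, 46 in the large and 31 in the small subunit. Another 5 are paralogs (Rpl3l, Rpl36al, Rpl39l, Rps27l and Rps4y2), and 1, Rps19bp1, encodes a protein that binds Rps19 and is no ribosomal protein. Core proteins such as Fau and Rack1 (Gnb2l1 in the files) carry other names and fall outside the rule.

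The ventral dentate gyrus is the granule cell region of the ventral hippocampus. RNA was sequenced from 12 libraries in 4 groups of 3. LAC responders and LAC non-responders were Flinders Sensitive Line (FSL) rats that drank L-acetyl-carnitine (LAC), a carnitine ester, at 0.3% w/v in tap water over 7 days, which came to some 210 mg/kg each day. FSL vehicle rats, of the same depression model line, had tap water, as did FRL vehicle rats of the Flinders Resistant Line, its control. The labels give Sprague-Dawley as the strain throughout and 3 biological replicates per group. Not given in the sources used here were the age of the rats, how many animals went into a library and what defined a response to LAC. Total RNA was depleted of ribosomal RNA before the libraries were made, so the data bear on the messages for ribosomal proteins and not on the amount of ribosomes.

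A ribosome joins a large and a small subunit, each a scaffold of ribosomal RNA clothed in proteins, most of them present once in each ribosome. Messages for most of these proteins begin with a C and a run of pyrimidines, the terminal oligopyrimidine (TOP) tract, through which the mTOR pathway tunes their translation in mammals. In neurons ribosomes supply the cell body and the dendrites, where local protein synthesis serves synaptic change. Messages for ribosomal proteins are abundant in nearly every cell type, so in whole tissue a lower number of cells and less RNA per cell cannot be told apart.

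The TOP tract is visible in the start sites of many members, and 8 start sites are shown, most for members on which the results below turn and Rpl31 for its tract of 12 bases. The sequences are from RefSeq on the rat assembly GRCr8, run from 10 bases before to 20 bases after the annotated start of the gene, and are written 5′ to 3′ on the gene's strand. Capitals mark the tract, defined as a C within 5 bases of the annotated start followed by at least 4 bases that are each C or T. Rpl35a (chr11:81235002-81235031, minus strand), Rpl31 (chr9:49143101-49143130, plus), Rplp1 (chr8:71290853-71290882, minus), Rpl9 (chr14:43247580-43247609, plus) and Rps7 (chr6:50999426-50999455, minus) hold one. Rpl21 (chr12:13386134-13386163, minus), Rps16 (chr1:92770648-92770677, plus) and Rps3 (chr1:163195757-163195786, minus) hold none at this place.
Rpl35a: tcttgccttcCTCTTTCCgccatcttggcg
Rpl31: atccctcgcgCCTTTCCTTTCCaacttggg
Rplp1: cgcatgtgatCCTTTCCTCagctgccgcca
Rpl9: aggacgttctCTCTTTgccccatctactgc
Rps7: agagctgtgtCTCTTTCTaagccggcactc
Rpl21: ttccgccggggcagccatcttccaggttgg
Rps16: aaaatcggtcggggtggccccaagctttcc
Rps3: ttcagcggcgcgcggcagcaagatggcggt

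Promoter entries, which span 250 bases before to 50 bases after the start, matched 66 of the 83 members, 62 of them core genes. A TOP tract within 5 bases of the start was present in 40 of the 62 core genes (64.5%), against 16.5% of the 8730 other tested genes with an entry and 17.0% of all 33469 promoters of the table. Allowing the C to lie within 20 bases raised this to 88.7% of the core genes, against 46.5% of the other tested genes. The letters CTTTCC on the sense strand within 20 bases of the start, which can lie inside a TOP tract, stood in 27.4% of the core genes, against 1.95% of the other tested genes. CCGGAA on either strand, the core letters of ETS family sites, stood in 53.2% of the core promoters, against 26.3%, and AAGATGG on either strand, the core of YY1 sites, in 16.1%, against 8.1%. GGGCGG on either strand, the Sp1 letters, was at 58.1% of the core promoters, against 62.4%, and CACGTG, the E-box read by Myc, at 8.06%, against 9.15%. TATAAA on the sense strand 40 to 20 bases before the start was found in 2 of the 62 core genes (3.23%), against 1.02%. Such letters describe the windows and are no evidence of a bound factor.

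Not every ribosomal protein gene could be measured. The depth of a library was 5.91 to 8.14 M counts in genes, where M stands for mega, so that a count of 3 equals 0.369 to 0.508 CPM (counts for each M of counts), a floor that covers counting error only. Rpl7a, Rpl8, Rplp2 and Rps9 had 0 counts in all 12 libraries, which allows up to that floor in each. Rps6, the substrate of the S6 kinases, had at most 2 counts in a library, and Rps19, the gene most often mutated in human Diamond-Blackfan anaemia, at most 1. Rpl37a held 6 to 17 counts per library. A mammalian ribosome contains all of these proteins, so these values were not read as levels of the messages.

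Copies are one property of these genes on which counting depends. The RefSeq table names 900 pseudogenes after 78 of the 83 members, with a median of 11 and a highest number of 36, for Rps2. It names 20 for Rpl7a, 16 for Rps9, 15 for Rps19, 11 for Rps6, 5 for Rpl8, 2 for Rplp2 and 13 for Rpl37a, but also 29 for Rps27a, 27 for Rpl9 and 25 for Rpsa, of which Rpsa had 1486 to 2530 counts per library. Reads aligned to several places made up 24.3% to 28.4% of all deposited counts, lines that name no gene included, and were not counted in genes. Whether copies account for the missing members was not tested, and for all members the counts of close copies remain uncertain. Small nucleolar RNA genes lie inside 30 of the 81 members with a span in the RefSeq table, against 2.12% of 14048 protein-coding genes.

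Filtering on low counts kept 75 members, 71 of them core genes, and 11750 genes in all. Beside the 6 core genes above, the testis paralog Rpl39l (0 to 8 counts) and the muscle paralog Rpl3l (0 to 4 counts) were too low to test. All tests below are edgeR's quasi-likelihood test on all 12 libraries with Benjamini-Hochberg adjustment over the 11750 genes, two-sided, with a threshold of 0.05. Levels are CPM on scaled library sizes, which follow transcript length as well as abundance, so genes are compared between libraries and not with each other.

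Summed over the 83 members, ribosomal protein genes took a similar share of all gene counts in every group. The share was 1.502%, 1.41% and 1.36% in LAC responders, 1.34%, 1.51% and 1.36% in LAC non-responders, 1.27%, 1.53% and 1.43% in FSL vehicle and 1.38%, 1.39% and 1.26% in FRL vehicle. The means were 1.43% ± 0.0697 in responders, 1.405% ± 0.0937 in non-responders, 1.41% ± 0.134 in FSL vehicle and 1.34% ± 0.0684 in FRL vehicle (SD, n = 3 each). All 4 groups overlapped, and the 2 extreme libraries of the whole set, FSL vehicle 2 and FRL vehicle 3, differed by a factor of 1.21. FSL vehicle alone nearly spanned that range.

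**Figure D1:**
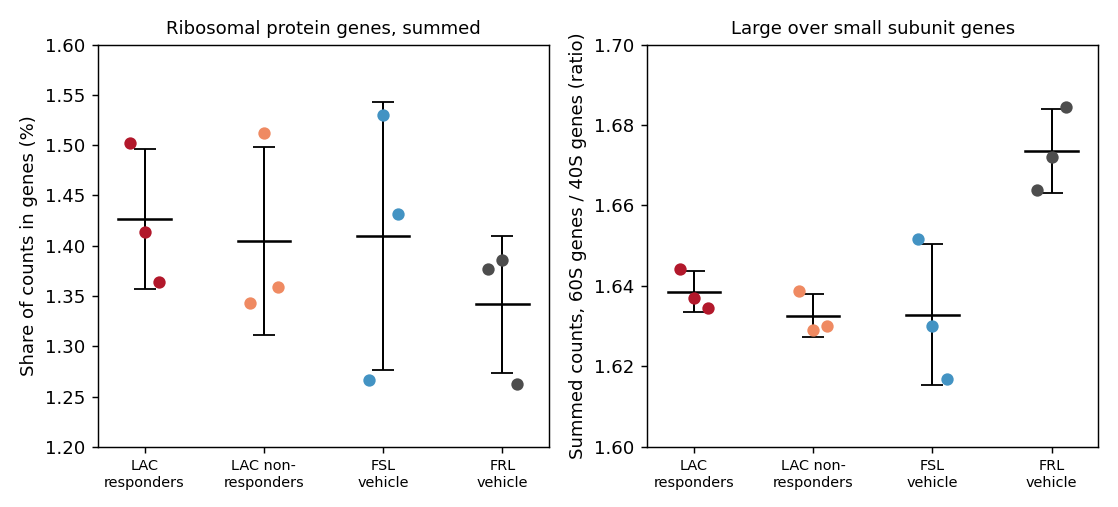
Left, share of all counts in genes that fell on the 83 ribosomal protein gene symbols (%); right, summed counts of large subunit genes over those of small subunit genes (ratio). Points are libraries, bars the mean and SD of 3, and both axes start above 0; the shares overlap between groups, whereas the ratio is 1.66 to 1.68 in FRL vehicle and 1.62 to 1.65 in the 9 FSL line libraries.

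No tested member passed the threshold between FSL vehicle and FRL vehicle rats, where 8 of all 11750 genes did (0.0681%). Members stood close to 0: the median log2 fold change over the 75 was 0.03, beside -0.01 over all genes, with 48 values above 0 (64% beside 48.4% of all genes). That count followed single libraries and settings: 23 were above 0 without FSL vehicle 2, 28 without FRL vehicle 3, 15 with meningeal markers as a covariate and 65 where library totals alone set the scale. All 13 tested meningeal and fibroblast markers were above 0 in this comparison (median log2 fold change 2.46, none past the threshold). In LAC responders against FSL vehicle all 13 were below 0 (median -2.815). A fit with this covariate therefore cannot part the group difference from the markers. An unadjusted p under 0.05 was given to 2 members, Rpl21 and Rps27l, 2.67% beside 13.9% of all genes. DESeq2 and limma-voom likewise gave 2 members an unadjusted p under 0.05, beside 1610 and 1348 of all genes. DESeq2 called 1 of the 2, Rpl21, beside 168 of all genes. The 95% interval of the fold change lay within 0.5 on the log2 scale either side of 0 for 72 of the 75 members (96%), and for 52.4% of all genes.

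Rpl21, a large subunit protein whose human gene is mutated in a hereditary loss of hair, set the lower end of that comparison. It stood at 289, 285 and 274 CPM in LAC responders, 274, 287 and 274 CPM in LAC non-responders, 261, 282 and 290 CPM in FSL vehicle and 344, 329 and 306 CPM in FRL vehicle. All 9 FSL line libraries lay below all 3 FRL libraries, and the 3 FSL line groups overlapped each other. In FSL vehicle it averaged 278 ± 14.8 CPM, against 326 ± 19.0 CPM in FRL vehicle (SD, n = 3 each). The log2 fold change was -0.23 ± 0.07 (SE), with an edgeR p of 0.00667 and an adjusted p of 0.251. DESeq2 gave an adjusted p of 0.0464 and limma-voom 0.349, so the call rested on the tool.

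Rpl35a, a large subunit protein mutated in human Diamond-Blackfan anaemia, went the other way. Its levels were 128, 121 and 120 CPM in LAC responders, 115, 127 and 114 CPM in LAC non-responders, 108, 121 and 108 CPM in FSL vehicle and 106, 101 and 92.7 CPM in FRL vehicle. Each FSL line library exceeded each FRL library, by the least between FSL vehicle and FRL vehicle. The log2 fold change of FSL vehicle against FRL vehicle was 0.17 ± 0.08 (edgeR adjusted p = 0.371).

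Rps27l, a small subunit paralog of Rps27 that p53 induces in human cells, stood at 8.6, 10.96 and 7.98 CPM in FSL vehicle, against 7.21, 6.67 and 5.28 CPM in FRL vehicle. The groups did not overlap, but these are low counts, and the log2 fold change of 0.52 ± 0.18 had an edgeR adjusted p of 0.270. With Rps4y2, a paralog of Rps4x that RefSeq places on rat chromosome 4, at 2.27, 2.84 and 4.76 CPM in FSL vehicle and 1.80, 2.13 and 1.19 CPM in FRL vehicle, 3 members were higher without overlap and 1, Rpl21, was lower. These 4 of 75 are 5.33%, beside 13.8% of all genes.

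**Figure D2:**
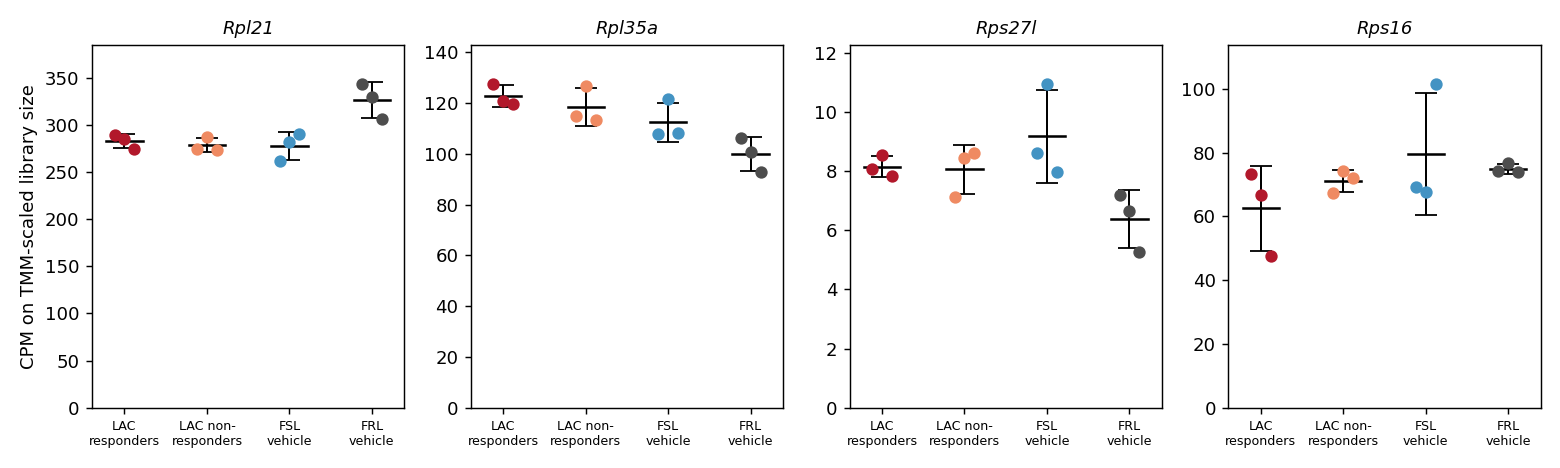
CPM on TMM-scaled library sizes in each library for Rpl21, Rpl35a, Rps27l and Rps16, with group means and SD (n = 3 each) and axes from 0. Rpl21 is lower and Rpl35a higher in all 9 FSL line libraries than in the 3 FRL vehicle libraries, and Rps16 has single libraries apart, at 102 CPM in FSL vehicle 3 and 47.5 CPM in responder 3.

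Setting all 9 FSL line libraries, treated or not, against FRL vehicle used the same FRL libraries and added the LAC groups. No member passed the threshold, beside 19 of all genes (0.162%). Of the 75 members, 4 had an unadjusted p under 0.05 (5.33% beside 6.66% of all genes): Rpl21, Rpl35a, Rps27l and Rps2, a small subunit protein at the entry of the message channel. DESeq2 gave 5 such members, beside 764 of all genes, and limma-voom 4, beside 675. For Rpl21 the log2 fold change was -0.22 ± 0.06 (edgeR adjusted p = 0.388), and for Rpl35a it was 0.24 ± 0.07 (edgeR adjusted p = 0.479). DESeq2 called Rpl21 (adjusted p = 0.0131) and not Rpl35a (adjusted p = 0.181), beside 47 called among all genes. Groups without overlap were found for 2 members, Rpl35a higher and Rpl21 lower (2.67% beside 1.94% of all genes).

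Rps2 stood at 349, 298 and 303 CPM in LAC responders, 309, 278 and 300 CPM in LAC non-responders, 276, 347 and 289 CPM in FSL vehicle and 289, 264 and 244 CPM in FRL vehicle. Of the 9 FSL line libraries 3 lay below the highest FRL library, and the log2 fold change was 0.20 ± 0.09 (edgeR adjusted p = 0.740). Over all 75 members the median was 0.05, beside -0.0004 over all genes, with 60 values above 0 (80% beside 49.9%). Without FRL vehicle 3 the median was 0.003 with 42 values above 0, and with the meningeal covariate 44 were above 0. Leaving out FRL vehicle 2 gave 68 above 0. Without FSL vehicle 1 and 3 and non-responder 1, the 3 libraries with much choroid plexus RNA, 70 were above 0. That fit leaves FSL vehicle with 1 library.

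A test for any difference among the 4 groups also called no member with edgeR, beside 3 of all genes (0.0255%). Rpl21 and Rpl35a, both with an edgeR adjusted p of 0.492, were the 2 members with an unadjusted p under 0.05 (2.67% beside 9.02% of all genes). DESeq2's likelihood ratio test called Rpl21 (adjusted p = 0.0401), beside 184 of all genes, and limma-voom called no member (smallest adjusted p = 0.765).

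LAC responders against FSL vehicle asks how these messages stood after a week of LAC in rats that responded. No member passed the threshold, nor did any of the 11750 genes with edgeR (0.0%), although 1619 genes had an unadjusted p under 0.05 (13.8%), DESeq2 called 181 and limma-voom called 0. No member had an unadjusted p under 0.05 with edgeR or limma-voom, and 2 had one with DESeq2, beside 1548 of all genes. The median over the 75 members was 0.06, beside 0.01 over all genes, with 60 values above 0 (80% beside 52.0%). Counts of this kind moved with the choice of libraries: without the 3 libraries with much choroid plexus RNA (FSL vehicle 1 and 3, non-responder 1), which leaves FSL vehicle with 1 library, the median was -0.06. With library totals alone for scaling 46 values were above 0, and without FSL vehicle 1 alone 37 were. Other settings raised the count, to 74 with meningeal markers as a covariate and 68 without FSL vehicle 2. Without FSL vehicle 2, 13 of the 75 members had an unadjusted p under 0.05 by edgeR. Over all genes the number rose from 1619 to 2986, a larger share than among the members. No member passed the threshold there.

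The members of smallest p were Rps3, Rpl4 and Rps16. Rps3, a small subunit protein at the message entry channel, stood at 240.99, 257 and 250.4 CPM in LAC responders, against 215, 240.97 and 215 CPM in FSL vehicle. Rpl4, which lines the exit tunnel of the large subunit, stood at 534, 541 and 514 CPM in LAC responders, against 468, 495 and 468 CPM in FSL vehicle. Both were higher in each responder than in each FSL vehicle library, the only 2 members without overlap (2.67% beside 12.5% of all genes), although for Rps3 the nearest libraries were almost equal. LAC non-responders had 241, 246 and 233 CPM of Rps3 and 496, 564 and 486 CPM of Rpl4. For both genes they overlapped the responders.

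Their log2 fold changes were 0.16 ± 0.08 for Rps3 (edgeR adjusted p = 0.381) and 0.15 ± 0.07 for Rpl4 (edgeR adjusted p = 0.3999). Rpl9, of the large subunit, had 382, 358 and 364 CPM in LAC responders, against 322, 361 and 290 CPM in FSL vehicle, with overlap and a log2 fold change of 0.18 ± 0.09 (edgeR adjusted p = 0.421). The intervals of 70 of the 75 members lay within 0.5 of 0 (93.3% beside 52.4% of all genes).

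Rps16, whose tail reaches the tRNA in the small subunit, was the member furthest below 0, at -0.35 ± 0.17 (edgeR adjusted p = 0.402). Its levels were 73.1, 66.8 and 47.5 CPM in LAC responders, 67.2, 74.1 and 71.9 CPM in LAC non-responders, 69.3, 67.7 and 102 CPM in FSL vehicle and 74.2, 76.7 and 73.8 CPM in FRL vehicle. The 10 other libraries lay between 66.8 and 76.7 CPM, and only FSL vehicle 3 and responder 3 stood apart. FSL vehicle 3 also had the highest sum of meningeal and fibroblast markers, 3690 CPM beside 122 to 1183 CPM in the other 11, and without it the log2 fold change was -0.14. Responder 3 had 143 CPM of those markers, and without it the value was -0.20. With the meningeal markers as a covariate, which themselves differed between these groups, it was 0.004.

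LAC non-responders against FSL vehicle gave no member past the threshold and none with an unadjusted p under 0.05 by edgeR, DESeq2 or limma-voom. Over all genes edgeR called 0 (0.0%), limma-voom 0 and DESeq2 2, and 495 genes had an unadjusted p under 0.05 by edgeR (4.21%). No member separated the groups without overlap, beside 7.8% of all genes. The median of the 75 members was 0.03, beside -0.004 over all genes, with 50 values above 0 (66.7% beside 48.9%). Scaling by library totals alone left 36 above 0, leaving out FSL vehicle 1 left 24 and leaving out non-responder 2 left 25. Leaving out FSL vehicle 2 gave 67, and the meningeal covariate gave 62. Without the 3 libraries with much choroid plexus RNA the median was -0.06, so no direction of the group as a whole was fixed. Rps7, of the small subunit, had the values 256, 280 and 250 CPM in LAC non-responders, against 227, 264 and 231 CPM in FSL vehicle (log2 fold change 0.12 ± 0.08, edgeR adjusted p = 0.976). This comparison and the preceding one share the 3 FSL vehicle libraries and are not independent.

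LAC responders against LAC non-responders compares rats that all drank LAC. No member passed the threshold or had an unadjusted p under 0.05 by edgeR, DESeq2 or limma-voom. With edgeR, 0 of all genes passed (0.0%), 369 had an unadjusted p under 0.05 (3.14%), and DESeq2 and limma-voom called 0. The median of the 75 was 0.02, beside 0.001 over all genes, with 52 values above 0 (69.3% beside 50.3%). That count was 36 without non-responder 3, 67 without non-responder 2 and 73 with the meningeal covariate. The intervals of 72 members lay within 0.5 of 0, 96% beside 57.6% of all genes.

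Of the 75 members, 3 did not overlap between responders and non-responders (4% beside 11.3% of all genes). Rps28, a small subunit protein near the message exit, was lower, at 49.3, 44.7 and 48.9 CPM in LAC responders and 51.7, 49.7 and 54.6 CPM in LAC non-responders, a log2 fold change of -0.13 ± 0.09 (edgeR adjusted p = 0.992). Rpl13 was higher, at 230, 209.8 and 209.7 CPM in responders and 207, 209 and 197 CPM in non-responders, with a gap between the groups far below the spread within them. Rpl37a, also higher, rested on 6 to 17 counts per library.

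**Figure D3:**
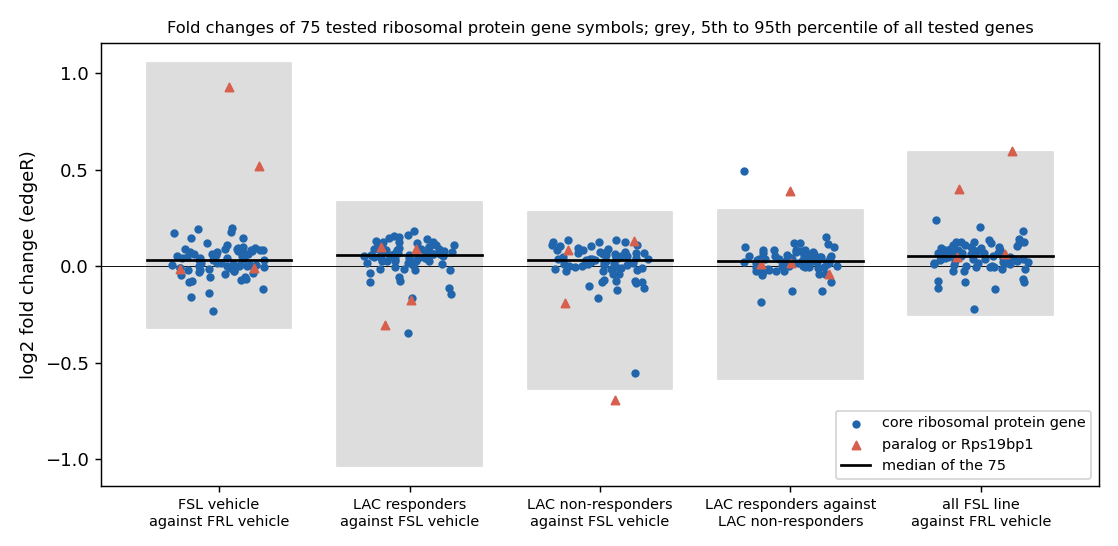
log2 fold changes (edgeR) of the 75 tested members in the 5 comparisons, with core genes as circles, paralogs and Rps19bp1 as triangles, the median of the 75 as a black line and the 5th to 95th percentile of all 11750 tested genes in grey. Most members lie close to 0, and the points furthest out are Rps4y2, Rps27l, Rpl37a and Rps16.

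Members with a known role were followed whatever their change, and none passed the threshold. The stalk protein Rplp0, which carries the acidic P proteins that call in translation factors, had 280, 294 and 295 CPM in LAC responders, 268, 295 and 266 CPM in LAC non-responders, 248, 351 and 281 CPM in FSL vehicle and 306, 266 and 257 CPM in FRL vehicle. Its partner Rplp1 had 404, 350 and 321 CPM in LAC responders, 302, 346 and 319 CPM in LAC non-responders, 308, 390 and 356 CPM in FSL vehicle and 359, 373 and 318 CPM in FRL vehicle. In both genes every group overlapped every other.

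Rpl5 and Rpl11, which together with a small ribosomal RNA bind Mdm2 and so stabilise p53 when ribosome assembly fails, showed narrow ranges. Rpl5 ran from 282 to 336 CPM and Rpl11 from 153 to 182 CPM over the 12 libraries. Their log2 fold changes of LAC responders against FSL vehicle were 0.04 ± 0.08 and -0.02 ± 0.08 (edgeR adjusted p = 0.838 and 0.951).

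Rpl22, an RNA-binding large subunit protein, had 40.8, 48.2 and 47.6 CPM in LAC responders, 43.4, 50.4 and 45.2 CPM in LAC non-responders, 37.8, 43.3 and 46.3 CPM in FSL vehicle and 43.0, 37.1 and 38.2 CPM in FRL vehicle. The groups overlapped, save that all 3 non-responder libraries lay just above all 3 FRL libraries. Its paralog Rpl22l1, outside the rule, had 62.4, 53.3 and 55.6 CPM in LAC responders, against 45.4, 56.6 and 36.5 CPM in FSL vehicle (log2 fold change 0.30 ± 0.14, edgeR adjusted p = 0.360).

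Rps4x, the X-linked form of a small subunit protein, had 294, 279 and 251 CPM in LAC responders, 268, 306 and 274 CPM in LAC non-responders, 251, 317 and 341 CPM in FSL vehicle and 277, 275 and 252 CPM in FRL vehicle. It was highest in FSL vehicle 3, the library richest in meningeal markers. The log2 fold change of FSL vehicle against FRL vehicle was 0.18 ± 0.11 (edgeR adjusted p = 0.520) and turned to -0.05 with those markers as a covariate. The markers themselves differed between these groups, so the change of sign cannot be parted from the group difference. Rpl38, which mouse embryos need to translate Hox messages, had 87.3, 111 and 99.9 CPM in FSL vehicle, against 106, 120 and 106 CPM in FRL vehicle (log2 fold change -0.16 ± 0.10, edgeR adjusted p = 0.494).

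Replicates of ribosomal protein genes lay closer together than those of most genes. Among the 71 members with a mean of at least 10 CPM, the median within-group SD of log2 CPM was 0.105, beside 0.154 for all 9159 genes of at least 10 CPM, and 68 of the 71 lay below that value. Their means ran from 43.4 to 501 CPM, and the plot of spread against level shows all genes tightening towards higher levels. The members were not set against genes of the same level alone. Rpl3, of the catalytic centre, had the lowest SD at 0.0566, and Rps16 the highest at 0.235. The ratio of the highest to the lowest of the 12 libraries had a median of 1.28 over the 71 members, beside 1.45 over all genes of at least 10 CPM. It stayed below 1.5 for 70 of the 71 (98.6% beside 56.3% of all genes of at least 10 CPM).

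**Figure D4:**
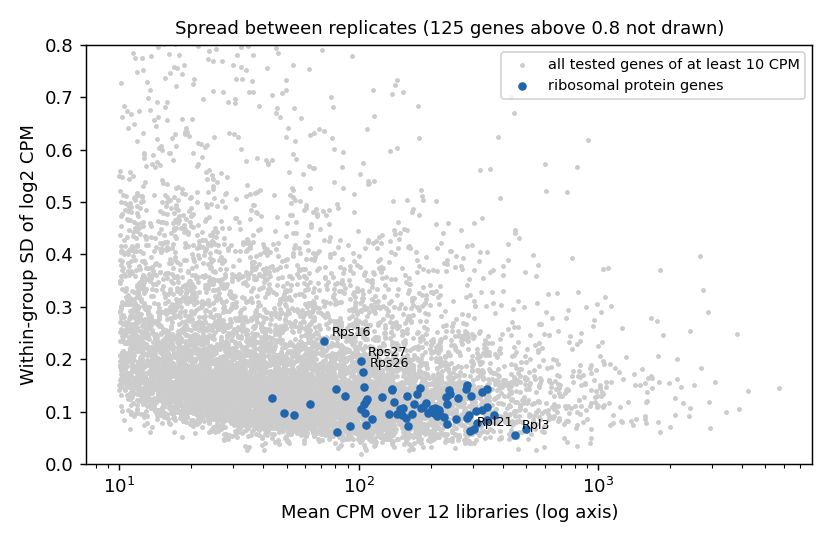
Within-group SD of log2 CPM against mean CPM over 12 libraries (log axis) for the 71 ribosomal protein genes and all 9159 tested genes of at least 10 CPM, 125 of which lie above the axis limit of 0.8. Of the members, 68 lie below the median SD of all these genes (0.154), with Rps16, Rps27 and Rps26 on top.

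Small as they were, the deviations were shared. Over the 12 libraries the median Pearson correlation between 2 members was 0.60 (2485 pairs of log2 CPM, 96.2% of them positive), beside 0.005 for all genes of at least 10 CPM (50.5% positive). These points share libraries, depth and scaling. With the mean of the other 70 members, 49 of the 71 correlated above 0.7, with Rpl32 at 0.95 and Rps18 at 0.94 among the highest. Rps16 (-0.02) and Rpl21 (0.11) were the least alike, followed by the paralog Rpl36al (0.28).

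The shared deviation did not follow the groups. The mean of the members was highest in FSL vehicle 2 (0.10 above the mean of all libraries on the log2 scale), non-responder 2 (0.10) and responder 1 (0.10), and lowest in FRL vehicle 3 and FSL vehicle 1 (-0.14 each). Each of the FSL line groups thus held 1 of the 3 highest libraries, and FSL vehicle held one of the lowest as well. FSL vehicle 1 was rich in choroid plexus markers (summed 3757 CPM, beside 17.8 to 82.7 CPM in 9 other libraries and 479 CPM in FSL vehicle 3), but non-responder 1, with 6712 CPM, had a member mean of -0.02. Responder 1 had the highest sum of thalamus markers, 596 CPM beside 111 to 270 CPM in the other 11 libraries. It and FRL vehicle 2 were low in Prox1, the marker of granule neurons, at 9.23 CPM and 10.1 CPM beside 52.9 to 129 CPM in the other 10, and FRL vehicle 2 had a member mean of 0.03. The 2 shallowest libraries, FRL vehicle 3 at 5.91 M and FSL vehicle 1 at 6.15 M counts, were those with the lowest member mean. The part of these measures in the shared deviation was not tested.

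**Figure D5:**
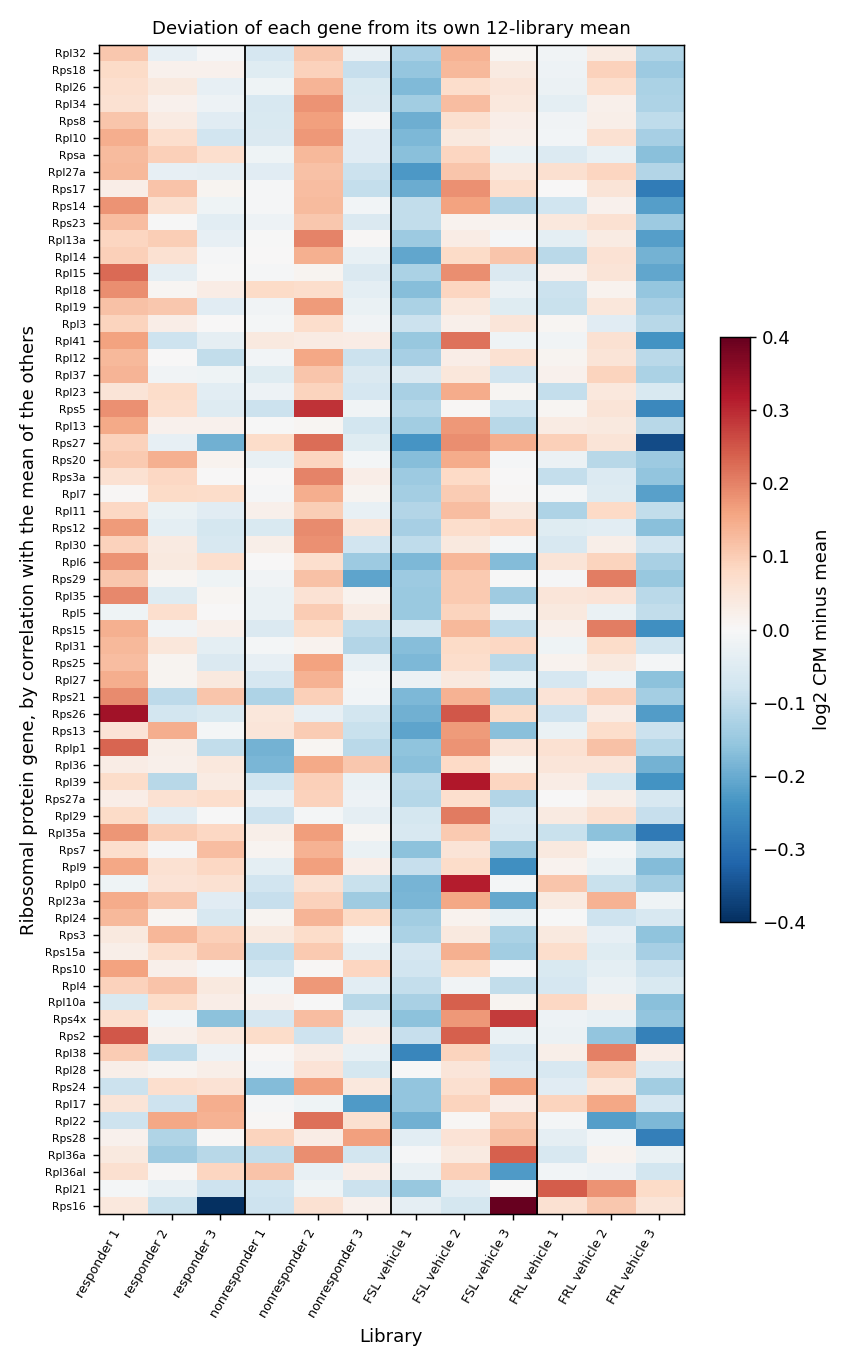
log2 CPM of 69 of the 71 ribosomal protein genes in each of the 12 libraries, as the deviation from the gene's own mean, with colours ending at 0.4 either side of 0. Genes are ordered by their correlation with the mean of the others; FSL vehicle 1 and FRL vehicle 3 are low and responder 1, non-responder 2 and FSL vehicle 2 high for most genes, while Rpl21 and Rps16 at the bottom go their own way.

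Genes outside the group that tracked it most closely over the 12 libraries were Aldh3a2 (r = 0.94), Maoa (r = 0.90), Txndc15 (r = 0.89), Gnb2l1 (r = 0.89) and Snrnp35 (r = 0.88), the 5 highest of 11675. Of these, Gnb2l1 encodes Rack1, a small subunit protein. It had 217, 216 and 223 CPM in LAC responders, 205, 223 and 197 CPM in LAC non-responders, 188, 230 and 208 CPM in FSL vehicle and 209, 220 and 195 CPM in FRL vehicle, and all groups overlapped.

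Other genes that build or run ribosomes gave no gene past the threshold in any of the 5 comparisons. Of 67 tested genes of the mitochondrial ribosome, 57 had a log2 fold change above 0 in LAC responders against FSL vehicle (85.1% beside 52.0% of all genes), with a median of 0.13, beside 0.06 for the cytoplasmic members and 0.01 for all genes. An unadjusted p under 0.05 by edgeR was given to 6 of them, 8.96% beside 13.8% of all genes. Mrps33 (0.36 ± 0.10) and Mrpl48 (0.35 ± 0.08) had the smallest p, both with an edgeR adjusted p of 0.266. In LAC non-responders against FSL vehicle 46 of the 67 were above 0 (68.7% beside 48.9% of all genes), with a median of 0.04. Mrpl48 had the smallest p there too, at 0.31 ± 0.08 (edgeR adjusted p = 0.976). In FSL vehicle against FRL vehicle 11 of the 67 were above 0 (16.4% beside 48.4% of all genes; median -0.09). Mrpl48, of smallest p, stood at -0.24 ± 0.08 (edgeR adjusted p = 0.270), and Mrpl43, next by p, stood the other way at 0.47 ± 0.18 (edgeR adjusted p = 0.288). These comparisons share the FSL vehicle libraries. The counts and medians of this list and of those below were not followed under the alternative settings. How far they rest on single libraries was therefore not tested.

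Ribosome assembly factors (43 tested) had medians of 0.09 in LAC responders against FSL vehicle and -0.04 in FSL vehicle against FRL vehicle. The 16 tested genes of ribosomal RNA transcription had medians of 0.06 and -0.05 in the same comparisons. Translation factors with TOP messages (22 tested) had medians of 0.02 and 0.03. Among these, Tpt1, a TOP message encoding the translationally controlled tumour protein, stood at 0.19 ± 0.08 in FSL vehicle against FRL vehicle (edgeR adjusted p = 0.353). The neuronal elongation factor Eef1a2 stood at -0.24 ± 0.10 (edgeR adjusted p = 0.322).

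Regulators of mTOR and translation (28 tested) had medians of -0.05 in LAC responders against FSL vehicle and 0.02 in FSL vehicle against FRL vehicle. Tsc2, a brake on mTOR, stood at -0.24 ± 0.09 in FSL vehicle against FRL vehicle (edgeR adjusted p = 0.288). Mtor itself, next by p, stood the same way at -0.18 ± 0.08 (edgeR adjusted p = 0.342). Eif4ebp2, which encodes a repressor of translation that binds the cap-binding protein eIF4E, stood at -0.41 ± 0.17 in LAC responders against FSL vehicle (edgeR adjusted p = 0.329).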

How the data were processed

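The authors deposited 1 table of raw read counts by gene symbol for each of the 12 libraries. The submitters' processing notes name the build rn5, HTSeq 0.6.1, TopHat2 2.0.9, Trimmomatic 0.33, FastQC 0.11.3 and edgeR 3.12.0. Annotation and strand setting were not given in the sources used here; overlapping and antisense genes therefore cannot be told apart. Lines that name no gene entered neither library sizes nor tests. They held reads outside genes (47.7% to 52.7% of all deposited counts), ambiguous reads (0.0756% to 0.106%) and multiply aligned reads (24.3% to 28.4%).

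Counts were tested with edgeR 4.0.16 in R 4.3.3 (TMM factors of 0.975 to 1.04, default expression filter, robust quasi-likelihood fit with a mean for each of the 4 groups). The common biological coefficient of variation was 0.178. Correlations and SDs used log2 CPM with a prior count of 2. Scripts were tested on simulated data. Alternatives were other scalings, no filter, DESeq2 1.42.0, limma-voom (limma 3.58.1), the compared groups only, a replicate block, a meningeal covariate and libraries left out. The scaling by summed member counts, and the block fitted to FSL vehicle and non-responders alone, were added after seeing the data. Deviations of libraries of the same number correlated above 0.1 for all 3 numbers only between FSL vehicle and non-responders (0.581, 0.212 and 0.426). Libraries of different number were not correlated, and number 1 joins the 2 libraries richest in choroid plexus markers. The check therefore cannot show a pairing, and no label names one.

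The members and lists were chosen with earlier results of these data known. Members named in the text are the extremes of each comparison (5 a side, of at least 10 CPM), the 3 of smallest p, the highest and lowest levels, members with a known role, paralogs and unmeasured members; Rpl13, Rpl31, Rpl32 and Rps18 were named after their values were seen. RefSeq on GRCr8 gave names, copies and start sites, with no conversion between builds. A few genes are not reported here by name.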

Additional observations from a re-analysis of the deposited data

How the results depend on the processing

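No ribosomal protein gene passed the threshold in any of the 5 comparisons or the test over 4 groups under any alternative run except DESeq2, which called 1, Rpl21, in FSL vehicle against FRL vehicle, in all FSL line libraries against FRL vehicle and in the test over 4 groups. The replicate block called 0 members in every comparison, also where it was fitted to FSL vehicle and non-responders alone; over all genes it called 4 in FSL vehicle against FRL vehicle and 9 in all FSL line libraries against FRL vehicle, without the block 8 and 19. The fits of the compared groups only have no separate value where all groups are compared.

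The median of the members moved by more than the SD between replicates (0.0899) without the 3 libraries rich in choroid plexus markers, to 0.136 in FSL vehicle against FRL vehicle, -0.0567 in responders against FSL vehicle and -0.0650 in non-responders against FSL vehicle, and with the meningeal covariate to 0.176 in responders against FSL vehicle. The share of core genes with a TOP tract moved to 88.7% within 20 bases.

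Over all genes the number called in FSL vehicle against FRL vehicle was 168 with DESeq2, 5 with limma-voom, 2 with the compared groups only, the meningeal covariate or without the 2 libraries low in granule neuron markers (responder 1 and FRL vehicle 2), 17 without the 3 choroid libraries and 2 to 271 with single libraries left out (271 without FSL vehicle 1). In responders against FSL vehicle it was 181 with DESeq2, 36 without the choroid libraries and 0 to 349 with single libraries left out (349 without FSL vehicle 1). In non-responders against FSL vehicle DESeq2 called 2, and in responders against non-responders 11 passed without the choroid libraries. In all FSL line libraries against FRL vehicle it was 47 with DESeq2, 3 without the 2 granule-low libraries, 12 with scaling by the summed member counts and 3 to 25 with single libraries left out. In the test over 4 groups it was 5 with RLE scaling, the meningeal covariate or the summed member counts, 6 with no filter, 184 with DESeq2, 27 without the choroid libraries and 2 to 98 with single libraries left out (98 without FSL vehicle 1). The cause was not tested.

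Of 1248 alternative values for 52 named results, 23 changed sign. With the meningeal covariate these were Rps16 in responders against FSL vehicle (0.0041) and against non-responders (0.0314), Rps27 (0.191 and 0.0444), Rpl36a (0.0273 and 0.0419), Rpl39 in responders against FSL vehicle (0.0595), Rpl24 in responders against non-responders (0.0191), and Rps4x in FSL vehicle against FRL vehicle (-0.0459), in non-responders (0.0024) and in responders (0.132) against FSL vehicle. Without the choroid libraries they were Rpl23a (0.106), Rpl38 (0.0053) and Rps25 (0.0593) in FSL vehicle against FRL vehicle, Rpl6 in responders (-0.0388) and Rps16 in non-responders (0.112) against FSL vehicle. Without the granule-low libraries it was Rps26 in responders against non-responders (-0.0451). With single libraries left out, Rpl36a ran from -0.141 to 0.0113 and Rps26 from -0.0462 to 0.163 in responders against non-responders; Rpl39 ran from -0.209 to 0.0050 in non-responders and from -0.206 to 0.0092 in responders against FSL vehicle, and Rplp0 from -0.194 to 0.0617 and Rps16 from -0.267 to 0.0567 in non-responders against FSL vehicle. None of these values passed the threshold. The meningeal covariate differed between the groups, so the sign changes under it cannot be parted from the group difference.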

Other observations

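A ratio that no comparison above set out to measure, seen after the values were examined and given with no test, was the summed counts of large subunit genes over those of small subunit genes. It was 1.64, 1.64 and 1.63 in LAC responders, 1.64, 1.63 and 1.63 in LAC non-responders, 1.65, 1.63 and 1.62 in FSL vehicle and 1.66, 1.67 and 1.68 in FRL vehicle. The 9 FSL line libraries lay below the 3 FRL libraries. Rpl21 took 1.89% to 2.11% of the members' counts in the FSL line libraries and 2.32% to 2.47% in the FRL libraries. Without Rpl21 the ratio was 1.561 to 1.597 in the FSL line libraries and 1.598 to 1.620 in the FRL libraries, so the nearest libraries almost met.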
